A study of Mus musculus with 42 samples.

Results

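The genes described here are the 7 cyclin-dependent kinase (CDK) inhibitors of the mouse, the Cip/Kip genes Cdkn1a (p21), Cdkn1b (p27) and Cdkn1c (p57) and the Ink4 genes Cdkn2a (p16 and Arf), Cdkn2b (p15), Cdkn2c (p18) and Cdkn2d (p19). They were picked by symbol from the 24466 gene symbols counted in 8 RNA-seq libraries of muscle precursor cells, with earlier results of the same libraries already known, so their RNA levels are given as a description. Whether a difference passed the threshold of the fit over all genes (called) is given as a label, and nothing is supported with it. All 7 were counted and all 7 passed the filter on low counts, Cdkn2a only through the iPax7 libraries.

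iPax7 cells are myogenic progenitors made from mouse embryonic stem cells that carry a Pax7 transgene switched on by doxycycline (Dox). The +Dox group (3 libraries) was grown with 0.75 µg/ml Dox and basic FGF. The -Dox group (2 libraries) was taken 3 days after Dox was washed out, when the cells differentiate. The paper describes the -Dox medium as lacking Dox and names no other change to it. The third group (3 libraries) was satellite cells, the resident muscle stem cells, isolated from muscle of Pax7-ZsGreen reporter mice. The age of these mice is not given in the sources used here. Both iPax7 groups carry the transgene and the satellite cells do not, so cell source, culture and transgene cannot be told apart in any comparison with satellite cells, and the labels do not say whether the libraries of a group came from separate cultures or animals. Chromatin lists came from the same iPax7 states, from 12 and 24 h without Dox, from iPax7 myotubes, from satellite cells, and from C2C12, an established mouse myoblast line that was also made to carry a flag control or Pax7-flag.

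CDK inhibitors stop the cell cycle by binding its kinases. Cip/Kip proteins bind whole cyclin-CDK complexes, among them those of cyclins E and A with Cdk2, while Ink4 proteins bind Cdk4 and Cdk6 and keep cyclin D from joining them. With the kinases held back, the retinoblastoma family stays unphosphorylated and cells leave the cycle, which myoblasts must do before they fuse. In muscle, Cdkn1a and Cdkn1c are known for this exit, Cdkn1b for quiescent stem cells, and the Cdkn2a locus for senescence and for growth arrest in cultured cells.

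Totals on genes ran from 39010958 to 54674619 counts per library, lowest in satellite cells. Reads set aside because they aligned to more than 1 place made up 7.11 to 7.60% in iPax7 libraries and 23.6 to 30.7% in satellite cells. Pax7 itself had 11610 to 14130 normalized counts in +Dox, 220.6 to 269.5 in -Dox and 3926 to 8504 in satellite cells, with the iPax7 groups as their labels call for. The summed level of 7 endothelial markers was 2.11 to 20.1 CPM (counts scaled to library size) in iPax7 libraries, where Cdh5 was at 0, and 361 to 480 CPM in satellite cells. Blood and macrophage markers gave 8.38 to 17.2 and 235 to 651 CPM (Ptprc, Adgre1 and Itgam at 0 in iPax7), fibroadipogenic markers 87.7 to 267 and 1260 to 2190 CPM, and glial markers 3.89 to 11.5 and 155 to 220 CPM. The smooth muscle and pericyte markers gave 67 to 154 CPM in +Dox, 1150 CPM in -Dox and 386 to 813 CPM in satellite cells. In both iPax7 groups most of this was Acta2, at 66.1 to 148 CPM in +Dox and 1140 CPM in -Dox. The other genes of this list, Rgs5, Myh11, Pdgfrb and Cspg4, were each higher in every satellite cell library than in -Dox. Genes that respond early to tissue dissociation, such as Fos, summed to 63.7 to 72.4 CPM in iPax7 and 8250 to 21100 CPM in satellite cells. The summed muscle stem cell markers were themselves highest in satellite cells, at 15500 to 23200 CPM against 3980 to 5640 CPM in +Dox. Most of the satellite cell sum was Sdc4, at 10100 to 16600 CPM against 855 to 1030 CPM in +Dox. Pax7 was lower in satellite cells (83 to 180 against 246 to 299 CPM) and Myf5 overlapped (2210 to 2970 against 2350 to 4020 CPM). Each other gene of the list was higher in every satellite cell library than in +Dox. Markers of differentiating muscle stood at 187 to 218 CPM in +Dox, 42000 to 42800 CPM in -Dox and 264 to 450 CPM in satellite cells, and pluripotency markers summed to under 1 CPM in all 8 libraries. The part of other cell types, of dissociation and of unplaced reads in the satellite cell values below was not tested, and in such bulk libraries fewer cells of a type and less RNA per cell cannot be told apart.

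The promoters of 4 genes carry most of what follows: Cdkn1b, whose start lies in a Pax7 site, Cdkn1a, the member that was higher without Dox, and Cdkn2a and Cdkn2b, which were near or at 0 reads in satellite cells. The 250 bases before each start are printed 5′ to 3′ on the strand of the gene, from the NCBIM37 (mm9) reference. Capitals mark TAAT (a homeodomain core), GTCACG (a stretch of the paired-domain motif), the E-boxes CAGCTG and CAGGTG, and GGGCGG (a GC box), each on either strand. Cdkn2a has 2 starts, an upstream one for the Arf transcript and a downstream one for p16, and Cdkn1a has 3, of which the second is shown.
Cdkn1b, chr6:134870169-134870418, plus strand: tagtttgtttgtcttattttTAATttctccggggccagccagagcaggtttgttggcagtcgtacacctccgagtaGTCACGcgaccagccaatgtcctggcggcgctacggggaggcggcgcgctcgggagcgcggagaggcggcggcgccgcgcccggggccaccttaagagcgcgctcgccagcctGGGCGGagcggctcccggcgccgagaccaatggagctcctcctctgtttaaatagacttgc
Cdkn1a start 2, chr17:29230467-29230716, plus strand: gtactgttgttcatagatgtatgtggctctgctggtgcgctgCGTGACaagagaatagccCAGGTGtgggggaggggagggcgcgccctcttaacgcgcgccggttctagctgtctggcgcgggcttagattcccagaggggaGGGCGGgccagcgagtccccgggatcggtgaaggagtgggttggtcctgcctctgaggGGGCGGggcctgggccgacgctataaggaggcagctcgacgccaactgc
Cdkn2a start 1, chr4:88940558-88940807, minus strand: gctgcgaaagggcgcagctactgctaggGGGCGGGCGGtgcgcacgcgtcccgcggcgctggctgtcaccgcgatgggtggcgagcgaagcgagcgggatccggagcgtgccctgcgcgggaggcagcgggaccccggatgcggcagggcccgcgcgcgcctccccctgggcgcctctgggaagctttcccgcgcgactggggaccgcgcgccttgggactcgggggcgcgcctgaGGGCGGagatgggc
Cdkn2a start 2, chr4:88928097-88928346, minus strand: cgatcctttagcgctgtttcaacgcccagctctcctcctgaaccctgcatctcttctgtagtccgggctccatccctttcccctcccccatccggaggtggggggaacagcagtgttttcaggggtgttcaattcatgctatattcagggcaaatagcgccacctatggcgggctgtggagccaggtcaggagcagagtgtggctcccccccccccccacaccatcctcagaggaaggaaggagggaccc
Cdkn2b, chr4:88956942-88957191, minus strand: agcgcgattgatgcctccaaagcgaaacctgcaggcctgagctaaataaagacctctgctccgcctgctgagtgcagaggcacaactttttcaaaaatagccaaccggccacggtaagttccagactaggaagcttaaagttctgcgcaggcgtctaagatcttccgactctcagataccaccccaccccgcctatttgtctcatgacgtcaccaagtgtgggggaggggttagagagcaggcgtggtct

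The Cdkn1b window held 1 TAAT, 1 GTCACG and 1 GGGCGG, beginning 230, 174 and 61 bases before the start, and no E-box of the 2 kinds searched. Of 31731 promoter windows of the same length, 53.9% held TAAT, 7.0% GTCACG, 12.5% CAGCTG, 17.7% CAGGTG and 34.2% GGGCGG on either strand. The Cdkn1a window held GTCACG in its reverse form, 1 CAGGTG and 2 GC boxes. At Cdkn2a, start 1 held 3 GGGCGG and 38 CpG, more CpG than 98.1% of the windows, whereas start 2 held none of the 5 motifs and 7 CpG, near the median of 6. The Cdkn2b window held none of them and 12 CpG. A match describes these letters and is not evidence of a bound factor.

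**Figure D1:**
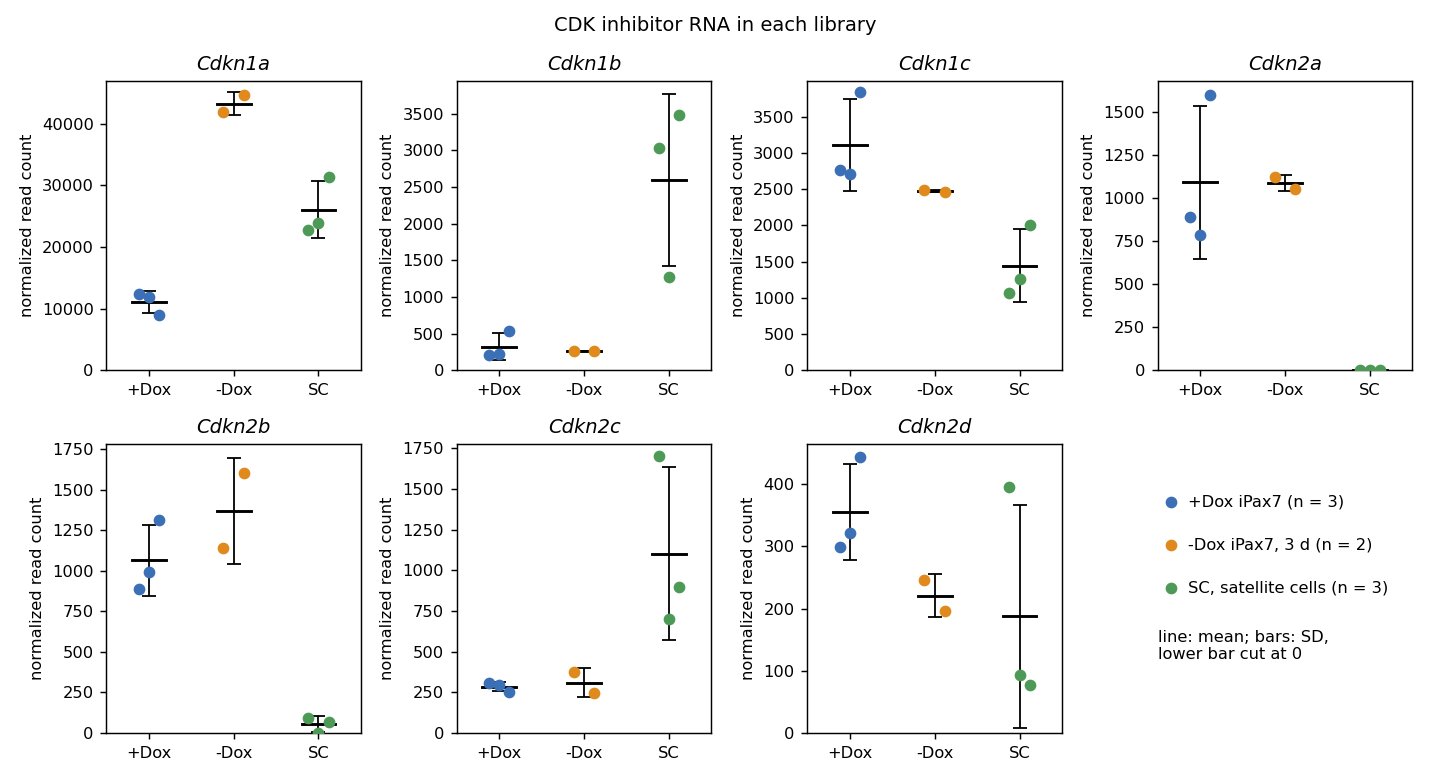
RNA of each CDK inhibitor in each library, as normalized read counts (vertical axis, linear from 0) in +Dox, -Dox and satellite cells (SC); points are libraries, lines means and bars SD. Cdkn1a was highest in both -Dox libraries, while Cdkn1b and Cdkn2c were highest in the 3 satellite cell libraries, which had at most 1.317 normalized counts of Cdkn2a.

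Cdkn1a (chr17:29227924-29237667, plus strand) is induced by p53 and by MyoD in differentiating muscle and was the most abundant member in every group. It had 12362, 11934 and 8998 normalized counts in the +Dox libraries, 42001 and 44613 in -Dox, and 22839, 23977 and 31411 in satellite cells. The 3 groups did not overlap, with -Dox at the top and +Dox at the bottom. From means of 11098 ± 1831 (SD, n = 3), 43307 ± 1847 (SD, n = 2) and 26076 ± 4655 (SD, n = 3), the level was 3.9-fold higher in -Dox than in +Dox (log2 1.96, SE 0.25). Satellite cells were 2.35-fold above +Dox (log2 1.23, SE 0.23) and 1.66-fold below -Dox (log2 -0.73, SE 0.25). The last difference lost its call in 8 of 15 alternative fits, in which it ran from -0.93 to -0.64.

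Cdkn1b (chr6:134870419-134875531, plus strand), the inhibitor best known from resting cells, followed another course. Its normalized counts were 204.3, 224.4 and 532.7 in +Dox, 260.1 and 266.8 in -Dox, and 3033, 1267 and 3480 in satellite cells. The iPax7 groups overlapped and every satellite cell library stood above every iPax7 library. Means were 320.5 ± 184.1, 263.4 ± 4.73 and 2593 ± 1171 (SD, n = 3, 2 and 3), so that satellite cells were 8.1-fold above +Dox (log2 3.02, SE 0.52) and 9.84-fold above -Dox (log2 3.30, SE 0.63). Between -Dox and +Dox the log2 difference was -0.28 (SE 0.55), and the wide +Dox spread came from replicate 3, without which the difference was 0.298.

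Cdkn1c (chr7:150644255-150646955, minus strand) is an imprinted gene, expressed from the maternal copy. The +Dox libraries had 2763, 2713 and 3845 normalized counts, the -Dox libraries 2483 and 2461, and satellite cells 1062, 1252 and 2010. Each group lay below the one before it without overlap. The means of 3107 ± 639.2, 2472 ± 15.71 and 1441 ± 501.4 put satellite cells 2.16-fold below +Dox (log2 -1.11, SE 0.31), and this call was lost without +Dox replicate 3 (log2 -0.924) or satellite cell replicate 2 (-1.013). The log2 difference of satellite cells from -Dox was -0.78 (SE 0.34) and that of -Dox from +Dox -0.33 (SE 0.35), and neither was called. The first of these was called without satellite cell replicate 3 (-1.091).

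Cdkn2a (chr4:88920377-88940557, minus strand) encodes p16, which binds Cdk4 and Cdk6, and in another reading frame Arf, which protects p53 from Mdm2. Reads of both transcripts share a symbol, so the values are their sum. The +Dox libraries held 1185, 1056 and 1754 reads and the -Dox libraries 1216 and 1140, while the satellite cell libraries held 1, 0 and 0. In normalized counts this was 890.1, 782.0 and 1597 in +Dox, 1118 and 1052 in -Dox, and 1.317, 0 and 0 in satellite cells. The iPax7 groups overlapped, with means of 1090 ± 442.8 and 1085 ± 46.1, and satellite cells stood apart from both. Per read counted on genes, the +Dox libraries together held 3140 times as many Cdkn2a reads as the satellite cell libraries (3995 against 1 read, exact 95% interval 563 to 124000), and the -Dox libraries 2770 times as many (2356 against 1 read, 496 to 109000). These intervals cover counting error only. The fitted log2 differences of -10.92 and -10.91 depend on the prior count that the fit adds.

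Cdkn2b (chr4:88952198-88956941, minus strand), the neighbour of Cdkn2a and a target of TGF-β signalling, followed a like course. It had 887.9, 992.3 and 1313 normalized counts in +Dox and 1140 and 1603 in -Dox. Satellite cells had 94.78, 0 and 67.26, from 72, 0 and 51 reads. The iPax7 groups overlapped and lay wholly above satellite cells. From means of 1064 ± 221.6, 1371 ± 328 and 54.02 ± 48.76, the level was 19.7-fold lower in satellite cells than in +Dox (log2 -4.30, SE 1.06) and 25.3-fold lower than in -Dox (log2 -4.66, SE 1.11). The difference of -Dox from +Dox was 0.37 on the log2 scale, within its SE of 1.01. That SE draws on the spread of all 3 groups, satellite cells included.

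Cdkn2c (chr4:109333481-109339794, minus strand), an Ink4 gene widely expressed in tissues, was highest in satellite cells, unlike Cdkn2a and Cdkn2b. Its normalized counts were 308.0, 294.7 and 252.2 in +Dox, 373.1 and 246.5 in -Dox, and 1705, 701.0 and 899.5 in satellite cells. Every satellite cell library exceeded every iPax7 library, and the iPax7 groups overlapped. Satellite cells (1102 ± 531.6) were 3.86-fold above +Dox (285 ± 29.12; log2 1.95, SE 0.45) and 3.56-fold above -Dox (309.8 ± 89.56; log2 1.83, SE 0.52). The second call was lost without either -Dox library, at 2.158 and 1.507.

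Cdkn2d (chr9:21092907-21095653, minus strand) was the member with no called difference. It had 299.7, 322.1 and 443.5 normalized counts in +Dox, 245.4 and 196.6 in -Dox, and 394.9, 92.49 and 76.49 in satellite cells. The -Dox libraries lay below the +Dox libraries without overlap. The satellite cells overlapped both iPax7 groups, since replicate 1 lay among the +Dox libraries and the others below all iPax7 libraries. Means were 355.1 ± 77.34, 221 ± 34.48 and 188 ± 179.4, with log2 differences of -0.68 (SE 0.79) for -Dox against +Dox, -0.92 (SE 0.70) for satellite cells against +Dox and -0.23 (SE 0.78) for satellite cells against -Dox. Without satellite cell replicate 1 the difference of satellite cells from +Dox was -2.067 and was called.

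**Figure D2:**
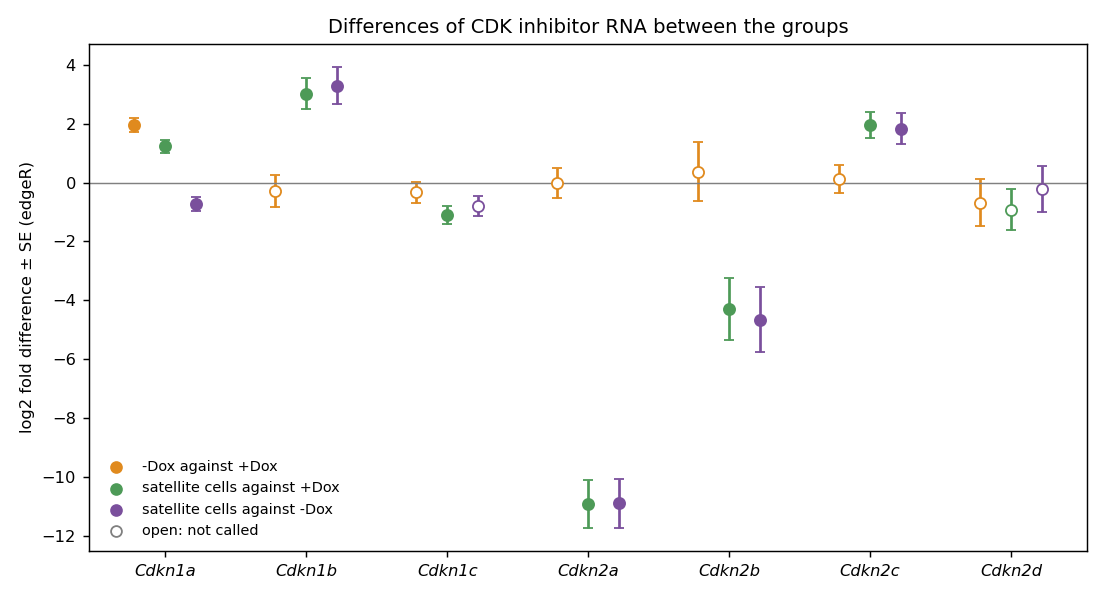
Log2 fold difference with its SE (vertical axis) for each CDK inhibitor in the 3 comparisons; filled points were called at an adjusted p under 0.05 and open points were not. Cdkn1a was the member called between -Dox and +Dox (1.96), and the fitted Cdkn2a values near -10.9 depend on the prior count.

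Counted over the family, 1 member was called higher and 0 lower in -Dox against +Dox, where 4.66% of the 14836 tested genes were called higher and 3.04% lower. Against +Dox, satellite cells had 3 members called higher (25.1% of all genes) and 3 called lower (19.8%). Against -Dox they had 2 called higher (20.9%) and 3 called lower (18.1%). Of the 3 called lower in each of these comparisons, Cdkn2a had passed the filter only through the groups in which it is high. The groups did not overlap for 3, 6 and 6 members in the same order, 6 being all but Cdkn2d, beside 45.3, 56.5 and 64.3% of all tested genes. Median log2 differences of the 7 genes were -0.01, -0.92 and -0.73, beside -0.005, 0.174 and 0.231 for all genes. As the genes were chosen with these contrasts known, nothing is read from the counts. Scaling to total counts moved the median of all genes to -0.22, -0.196 and 0.062, and the share of calls that were higher from 60.5 to 48.3%, from 55.8 to 43.4% and from 53.6 to 47.3%. The comparisons share libraries, so they are not independent of each other.

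Levels were compared between genes per length, as CPM per kb of exon. In +Dox the order was Cdkn1a (106), Cdkn1c (34.0), Cdkn2a (19.7), Cdkn2b (16.2), Cdkn2d (5.91), Cdkn2c (2.24) and Cdkn1b (1.49), and the libraries of Cdkn2a and Cdkn2b, and those of Cdkn2c and Cdkn1b, overlapped. In -Dox the order was nearly alike, with Cdkn1a at 412, Cdkn1c at 27.1, Cdkn2b at 20.8, Cdkn2a at 19.6, Cdkn2d at 3.68, Cdkn2c at 2.44 and Cdkn1b at 1.22, and Cdkn2b and Cdkn2a overlapped. In satellite cells Cdkn1a (248) was followed by Cdkn1c (15.8), Cdkn1b (12.0), Cdkn2c (8.67), Cdkn2d (3.13), Cdkn2b (0.82) and Cdkn2a (0.00793), and only Cdkn1a was separated from its neighbour by more than the spread of the libraries. Cdkn1b, lowest by mean per length in both iPax7 groups, thus came after Cdkn1a and Cdkn1c in satellite cells. These places depend on the exon lengths. In CPM alone, Cdkn1b stood at 5.50 and 5.64 in -Dox, above Cdkn2d at 5.19 and 4.16. In satellite cells it stood at 26.79 to 73.6 CPM, against 22.47 to 42.5 CPM for Cdkn1c.

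Measured in the same unit, the Ink4 genes made up 23.7 ± 6.21% of the summed CDK inhibitor RNA in +Dox, 9.55 ± 0.191% in -Dox and 4.53 ± 3.10% in satellite cells. Within the Ink4 family, Cdkn2a took 43.8% in +Dox, 42.3% in -Dox and 0.037% in satellite cells, and Cdkn2b took 37.2, 44.5 and 5.87%. Cdkn2c took 5.42 and 5.29% in the iPax7 groups and 72.1% in satellite cells, where Cdkn2d held another 22%. Within Cip/Kip, Cdkn1a took 74.5% in +Dox, 93.6% in -Dox and 90.1% in satellite cells, while Cdkn1c was 24.4, 6.15 and 5.62% and Cdkn1b 1.09, 0.278 and 4.33%.

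**Figure D3:**
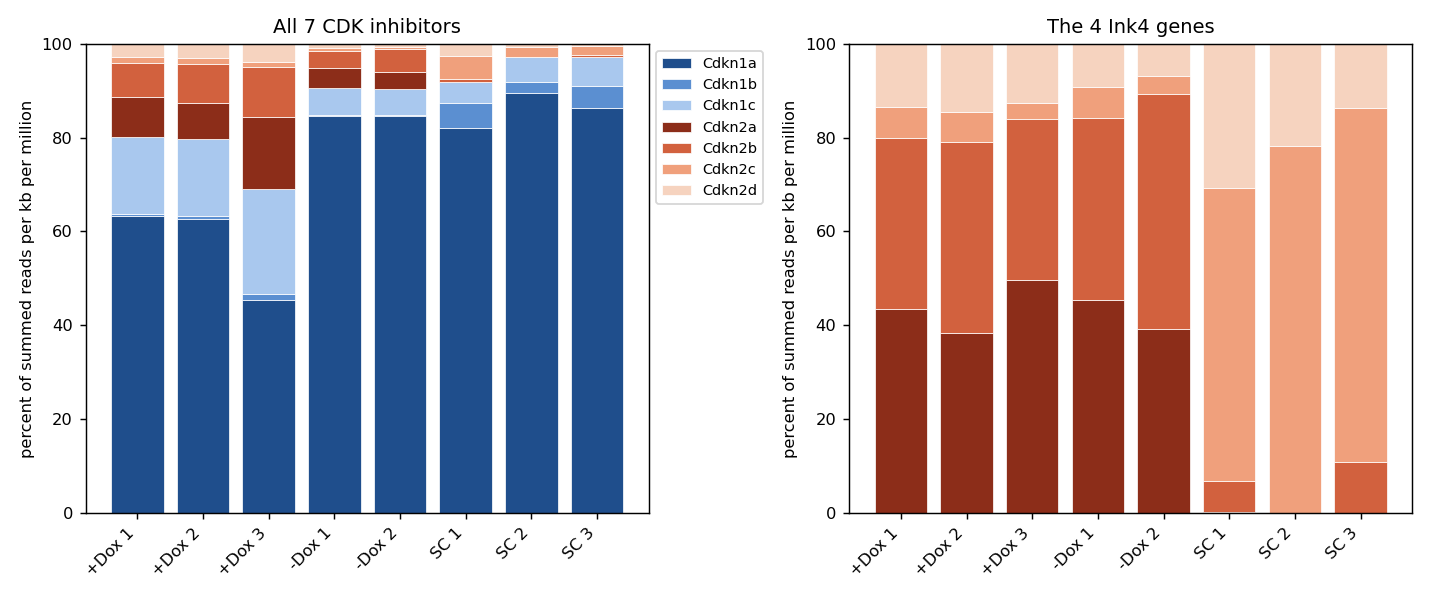
Make-up of CDK inhibitor RNA in each library, as percent of the summed CPM per kb of exon (vertical axis), for all 7 genes (left) and the 4 Ink4 genes (right). In the right panel Cdkn2a and Cdkn2b fill most of each iPax7 bar, and Cdkn2c takes 62.6 to 78.2% of each satellite cell bar.

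Chromatin at the starts of these genes was read from ATAC-seq regions, which mark DNA open to the Tn5 transposase, and from regions of histone marks. Replicates had been merged before regions were called, so these values have no replicate error and no test. A region lay within 1 kb of a start of 6 members, all but Cdkn2d, in each of the 5 iPax7 ATAC lists and in satellite cells, where 56.4 to 63.2% of the 22372 coding genes had one. Open chromatin at Cdkn2a and Cdkn2b was thus listed in satellite cells also, although their RNA was near 0 there.

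ATAC fold enrichment, the height of the strongest region over its background, was 34.95 at Cdkn1b in +Dox, 19.04 at 12 h without Dox, 33.92 at 24 h, 32.28 at 3 days and 27.54 in satellite cells. At the second Cdkn1a start it was 30.82 in +Dox and 30.71 at 3 days, although RNA was higher at 3 days, and 10.55 in satellite cells. For Cdkn2a, start 1 had 41.75 in +Dox, 29.6 at 3 days and 19.33 in satellite cells, and start 2 had 23.85, 19.51 and 5.27. Cdkn2b had 39.94, 48.74 and 24.22, Cdkn2c 42.96, 48.74 and 27.73, and Cdkn1c 21.35, 15.26 and 13.67. Heights were lower in the 12 h list than in the +Dox list at each of these starts, and the 12 h list was also smaller, with 112586 regions against 135564, so no difference between lists is read as a change at a gene.

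**Figure D4:**
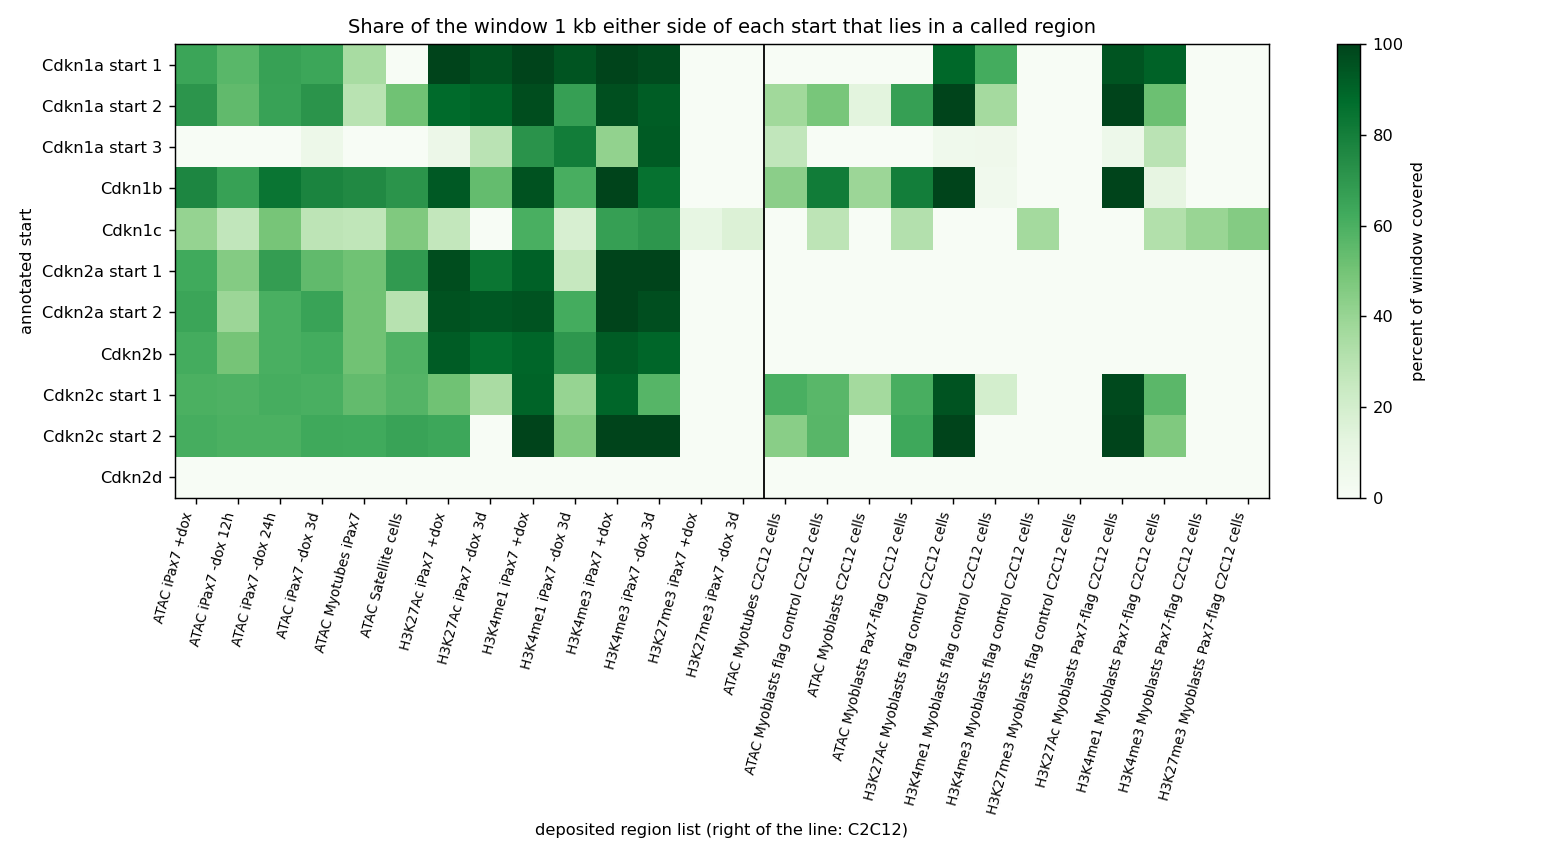
Share of the 2 kb around each annotated start (rows) that lay in a called region of each list (columns, C2C12 lists right of the line), as percent of the window. Rows of Cdkn2a and Cdkn2b are filled in the iPax7 and satellite cell lists other than H3K27me3 and empty in all C2C12 lists, and the Cdkn2d row is empty throughout.

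H3K27ac, a mark of active promoters and enhancers, lay at 6 members in +Dox (45.9% of coding genes) and at 5 in -Dox (43.1%), the difference being Cdkn1c. Its regions covered 93.2% of the Cdkn1b window in +Dox and 53.6% in -Dox, 64.0 and 0% at the second Cdkn2c start, and 26.2 and 0% at Cdkn1c. At the second Cdkn1a start they covered 87.8 and 89.7%, at the third 7.8 and 29.0%, and at Cdkn2b 92.2 and 86.0%. The +Dox list had 119528 H3K27ac regions over 73.14 Mb and the -Dox list 90168 over 49.24 Mb. No difference between these lists is therefore read as a change at a gene. H3K4me1 (59.7 and 62.6% of coding genes in +Dox and -Dox) and H3K4me3 (58.4 and 64.1%) lay at the same 6 members in both states. H3K4me3 covered 41.7 and 92.6% of the window at the third Cdkn1a start, where ATAC regions covered 0% in +Dox and 7.0% at 3 days. The H3K4me3 lists held 94067 and 214172 regions and the ATAC lists 135564 and 172103, so these are not read as changes either. Within 1 kb of a start, H3K27me3, the mark of Polycomb repression, lay at Cdkn1c alone among the members. It covered 10.9% of the Cdkn1c window in +Dox and 16.1% in -Dox, and was listed near 20.3 and 18.5% of coding genes. Over whole genes with 5 kb on each side, H3K27me3 covered 43.0 and 29.0% at Cdkn1c and 20.2 and 0% at Cdkn2c. At Cdkn1b it covered 0 and 3.5%, and the other members had none. No Cdkn2a or Cdkn2b window held H3K27me3 in iPax7 cells.

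Of 2455 Pax7 sites, defined in at least 2 +Dox replicates and in no -Dox replicate, 1 lay on a member's start. This site, chr6:134870010-134870703, spans the Cdkn1b start and contains the whole promoter window printed above. Its 694 bases held 1 TAAT, 1 GTCACG, 2 GGGCGG and 65 CpG at 65.4% GC. Sites that span a coding start numbered 222 (9.04% of sites), and 238 of the 22372 coding genes had a start inside a site. Among 250-base windows on the centres of all sites, 78.0% held TAAT, 8.7% GTCACG and 8.6% GGGCGG. Cdkn1b RNA was at 204.3 to 532.7 normalized counts in +Dox, where the site was called, and at 260.1 and 266.8 in -Dox, where it was not. The next nearest site to any member lay 51.6 kb from Cdkn1a, and those nearest to Cdkn2a and Cdkn2b lay 1541.0 and 1569.8 kb away.

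In C2C12 lists, ATAC regions lay at 3 or 4 members: Cdkn1a, Cdkn1b and Cdkn2c in all 4 lists, and Cdkn1c in the flag control and Pax7-flag lists. Over all coding genes the 4 lists had a region at 42.6 to 54.3%. H3K27ac lay at Cdkn1a, Cdkn1b and Cdkn2c with either construct, beside 51.7% of coding genes with the flag control and 52.9% with Pax7-flag. H3K27me3 covered 45.4% of the Cdkn1c window with Pax7-flag and 0% with the flag control, where its H3K4me3 covered 39.5 and 36.7%. Nothing was listed at Cdkn2a, Cdkn2b or Cdkn2d. For Cdkn2a and Cdkn2b the emptiness reached far beyond the promoters, since none of the 12 C2C12 lists, repressive H3K27me3 included, had a region anywhere in chr4:88910652-89153337. This stretch of 242.7 kb holds Cdkn2a and Cdkn2b and no other coding gene, with 31 ATAC regions of +Dox cells, 17 of satellite cells and 91 H3K27ac regions of +Dox cells. Of 429715 stretches between C2C12 regions, 32514 held a +Dox ATAC region, the median was 0, and 7 held as many as 31 or more. The lists hold called regions only, so chromatin that is closed and unmarked and DNA that gave no reads, whether or not the line carries it, cannot be told apart. C2C12 RNA was not analysed here.

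The partners and regulators of the inhibitors were described with lists that were also drawn up with earlier results known, each by its counts, its median log2 difference and its leading called genes. All adjusted p-values are edgeR's, corrected over the 14836 tested genes by the Benjamini-Hochberg method. Of these genes, 4.66% were called higher and 3.04% lower in -Dox against +Dox. In satellite cells 25.1 and 19.8% were called higher and lower against +Dox, and 20.9 and 18.1% against -Dox. Each list count below stands beside these shares. The kinases and cyclins that the inhibitors bind (10 genes) had 0 called higher and 4 lower in -Dox against +Dox, with a median of -0.45. Ccna2 fell from 875.6 to 54.29 normalized counts (log2 -4.01, adjusted p = 0.0433), Ccne2 from 1224 to 98.06 (log2 -3.64, adjusted p = 0.00358) and Cdk1 from 13604 to 1412 (log2 -3.27, adjusted p = 0.0261). These are the S phase and mitotic partners. The Ink4 targets Cdk4 and Cdk6 were not called, at log2 -0.56 and 0.10. The 4 lower calls rest on single libraries, being 2 without any 1 of the +Dox libraries, 1 without -Dox replicate 1 and 0 without -Dox replicate 2.

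Satellite cells had 9 of the 10 kinases and cyclins lower than +Dox and 7 lower than -Dox, with none higher and medians of -3.01 and -1.94. The 7 became 4 without -Dox replicate 2. Both Ink4 targets were among them. Cdk4 was at 36838 normalized counts in +Dox, 24998 in -Dox and 6376 in satellite cells, and Cdk6 at 7786, 8366 and 1675. Against +Dox the leading genes were Cdk1 (log2 -5.54, adjusted p = 0.000264), Ccna2 (-4.69, adjusted p = 0.00252) and Ccne1 (-4.12, adjusted p = 0.000121), and against -Dox the D cyclins Ccnd2 (-3.56) and Ccnd1 (-2.61) and the kinase Cdk6 (-2.32).

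Proliferation markers (10 genes) gave 9 lower in -Dox than in +Dox and 9 lower in satellite cells than in +Dox, with medians of -3.62 and -4.32. The first 9 became 4 without either -Dox library and the second stayed at 9 without any single library. Mki67 was at 6209 ± 1091 normalized counts in +Dox and 343.1 ± 290.2 in -Dox (log2 -4.18, adjusted p = 0.00802), and Ccnb1 at 21822 in +Dox and 288.5 in satellite cells (log2 -6.24). Between satellite cells and -Dox 1 was higher, the replication clamp gene Pcna (log2 1.74), and 2 were lower, Ccnb1 (-2.72) and Aurkb (-1.43). These 2 became 1 without either -Dox library or satellite cell replicate 2 or 3, and 4 without satellite cell replicate 1. Pcna was not called between satellite cells and +Dox, at 9250 ± 2030 and 10190 ± 1651 normalized counts (log2 -0.14). The groups with less of most proliferation transcripts than +Dox, namely -Dox and satellite cells, thus had more Cdkn1a RNA than +Dox. Cdkn1b and Cdkn2c had overlapping levels in the iPax7 groups and higher ones in satellite cells.

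**Figure D5:**
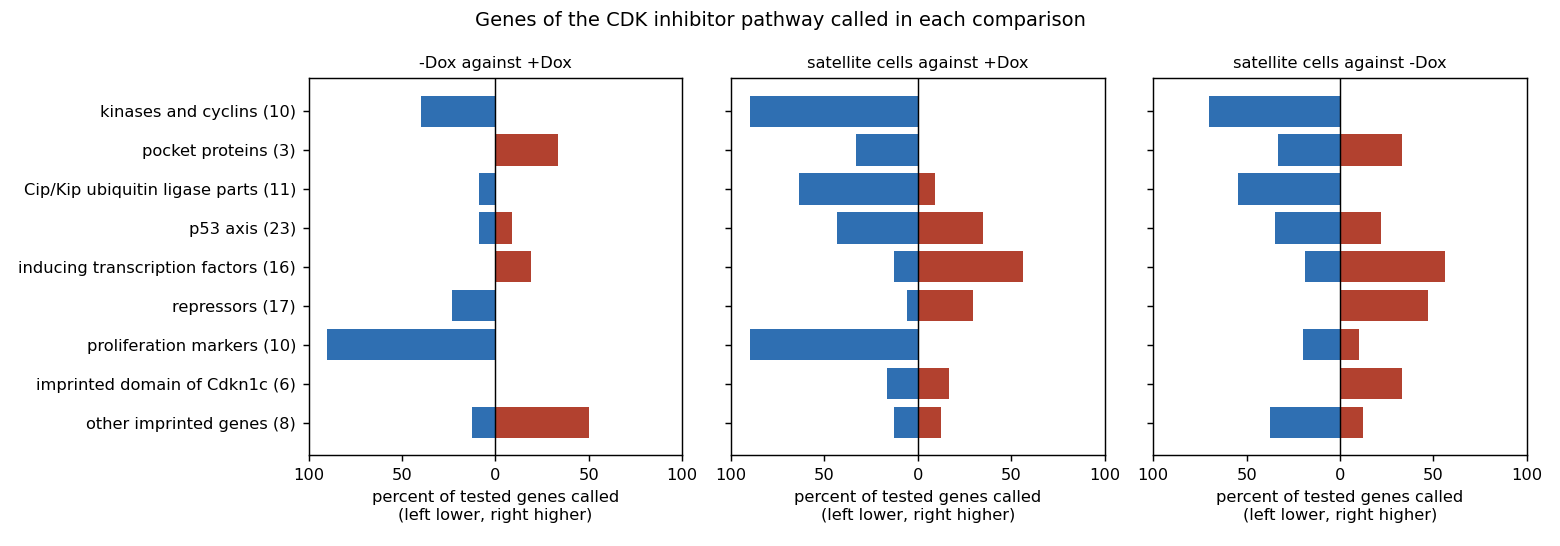
Percent of the tested genes of each list (number in brackets) called lower (left of 0) or higher (right of 0) in the first-named group of each comparison. The bars of kinases and cyclins point left in all 3 panels, at 4, 9 and 7 of 10 genes.

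Among the pocket proteins, which the kinases phosphorylate, Rb1 was higher in -Dox, at 4291 ± 270.7 against 855.9 ± 36.67 normalized counts in +Dox (log2 2.33, adjusted p = 0.00144) and 908.9 ± 141.6 in satellite cells. Rbl1 (p107) was lower in satellite cells than in +Dox (log2 -4.19, adjusted p = 0.0108), and Rbl2 (p130) was higher in satellite cells than in -Dox (638.1 against 138.5 normalized counts, adjusted p = 0.0293). Of 11 parts of the ubiquitin ligases that destroy Cip/Kip proteins, 1 was called between -Dox and +Dox, the Cul4 adaptor Dtl (log2 -2.46, adjusted p = 0.022). In satellite cells 7 were lower and 1 higher than in +Dox, with a median of -1.35, led by the p27 ligase pair Cks1b (log2 -3.67, adjusted p = 7.38e-05) and Skp2 (log2 -3.55, adjusted p = 0.00044) and by Ubac1 (-2.53), of the other ligase known for p27. The part called higher was Cul1 (log2 1.07, adjusted p = 0.0109), the scaffold of the Skp2 ligase, and Rnf123, the partner of Ubac1, was at 1.12 (adjusted p = 0.172). Against -Dox 6 were lower and 0 higher, led by Ubac1 (-2.61), Cks1b (-2.45) and Rbx1 (-1.87), and 3 without either -Dox library.

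The p53 axis (23 genes) had calls in both directions. In -Dox against +Dox 2 were higher and 2 lower (8.7% each, beside 4.66 and 3.04% of all genes), among them Pmaip1 (log2 4.10, adjusted p = 0.0033), Gadd45a (1.58, adjusted p = 0.0493) and Perp (-3.11, adjusted p = 0.0343). Trp53 itself was not called in any comparison, at 26498, 14873 and 22411 normalized counts in +Dox, -Dox and satellite cells. The 2 lower became 0 without +Dox replicate 3, -Dox replicate 1 or -Dox replicate 2, and the 2 higher became 1 without +Dox replicate 2, either -Dox library or satellite cell replicate 1 or 3. Satellite cells had 8 higher and 10 lower than +Dox (34.8 and 43.5%, beside 25.1 and 19.8% of all genes), with Btg2 (log2 4.92) up and Perp (-5.37) and Ccng1 (-4.61) down, and 5 higher and 8 lower than -Dox (21.7 and 34.8%, beside 20.9 and 18.1%), with Btg2 (4.31), Ccng1 (-4.26) and Zmat3 (-3.66) in front. Btg2 is also an early response gene, and the dissociation genes above were likewise high in satellite cells. Their part in its level was not tested.

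Transcription factors known to induce CDK inhibitors (16 genes) had 3 higher and 0 lower in -Dox. These were the muscle factors Mef2c (124.8 to 51278 normalized counts, log2 8.68, adjusted p = 4.3e-05) and Myog (4150 to 174963, log2 5.40, adjusted p = 7.75e-06), and the TGF-β mediator Smad3 (log2 1.81, adjusted p = 0.00527). Satellite cells had 9 higher and 2 lower than +Dox and 9 higher and 3 lower than -Dox, the 9 becoming 5 without -Dox replicate 2 and the 2 becoming 0 without +Dox replicate 2 and 1 without +Dox replicate 1. Myod1 led with Egr1 and Klf4, at 22962 ± 2879 normalized counts in satellite cells against 200.2 ± 106.4 in +Dox and 139.6 ± 34.95 in -Dox. Egr1 (log2 6.61 and 7.66) and Klf4 (5.79 and 7.03) belong with the early response genes that were high in satellite cells.

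Repressors of the Ink4 locus or of Cdkn1a (17 genes) had 0 higher and 4 lower in -Dox, led by Id2 (log2 -2.29, adjusted p = 0.0121), Id3 (-2.28, adjusted p = 0.0249) and Id1 (-1.97, adjusted p = 0.011), which hold back E-box factors. Satellite cells had 5 higher and 1 lower than +Dox (29.4 and 5.88%, beside 25.1 and 19.8% of all genes). Against -Dox they had 8 higher and 0 lower (47.1 and 0%, beside 20.9 and 18.1%). Myc was at 7137, 3847 and 140686 normalized counts in +Dox, -Dox and satellite cells (log2 4.30 and 5.19), the Polycomb gene Cbx7 at 20.32, 17.06 and 355.2 (4.12 and 4.37) and Tbx3 at 97.75, 19.33 and 375.5 (1.94 and 4.27). Of the other Polycomb genes in the list, Rnf2 (log2 1.15, adjusted p = 0.00402) and Suz12 (0.75, adjusted p = 0.0496) were higher and Eed (-0.94, adjusted p = 0.00694) was lower in satellite cells than in +Dox, and Suz12 (1.44, adjusted p = 0.00687) and Kdm2b (1.14, adjusted p = 0.0399) were higher than in -Dox. Bmi1, Ring1, Cbx2, Cbx8 and Ezh2 were not called in any comparison. Without -Dox replicate 1 or without -Dox replicate 2, the 4 called lower in -Dox became 0 and the 8 called higher in satellite cells became 4, and without +Dox replicate 2 or 3 the 4 became 2. Without +Dox replicate 2 or 3 or satellite cell replicate 3, the 5 called higher than in +Dox became 3.

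The imprinted domain around Cdkn1c was represented by 7 genes, of which 6 were tested. Between -Dox and +Dox edgeR called 0 of them (1 at an unadjusted p under 0.05) and DESeq2 called 1, and Cdkn1c was not called there either. In satellite cells the antisense RNA Kcnq1ot1, whose paternal transcript silences the domain, was higher than in +Dox (11370 ± 7581 against 2677 ± 707.7 normalized counts, log2 2.09, adjusted p = 0.00966) and than in -Dox (log2 2.43, adjusted p = 0.012), while Tssc4 was lower than in +Dox (-1.74, adjusted p = 0.00653). Kcnq1ot1 lies inside Kcnq1 on the other strand, and whether the counting used strand is not given in the sources used here. Phlda2 was called higher in satellite cells, at 25.62 normalized counts, than in -Dox, where both libraries were at 0. The 2 calls against -Dox became 0 without either -Dox library. Of 8 other imprinted genes, 4 were higher and 1 lower in -Dox than in +Dox, led by H19 (log2 6.05, adjusted p = 4.21e-05), Meg3 (6.02, adjusted p = 1.45e-05) and Dlk1 (4.44, adjusted p = 0.0102). In satellite cells Meg3 was higher (6.17) and Dlk1 lower (-2.66) than in +Dox, and Dlk1 (-7.10), H19 (-5.56) and Igf2 (-4.75) were lower than in -Dox.

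The genes whose levels ran most like each member were found by Pearson's r of log2(normalized count + 1) over the 8 libraries, among 6294 genes with a mean of at least 1000. These values are a description, since the libraries form 3 groups and a gene that follows the groups reaches a high r. For Cdkn1a they were Ppp2r3a (0.995), Acvr2a (0.992) and Mllt3 (0.989), for Cdkn1b Kdm6b (0.990), Ubb (0.989) and Jtb (0.985), and for Cdkn1c Phf5a (0.990), Uchl3 (0.988) and Prdx1 (0.987). For the Ink4 genes they were 0610007P14Rik (0.998), Mrpl15 (0.996) and Polr2e (0.996) with Cdkn2a, Fbxo25 (0.993), Mrpl35 (0.991) and Rxrg (0.991) with Cdkn2b, Tnip1 (0.986), Spry1 (0.980) and Bcl2 (0.977) with Cdkn2c, and Plin3 (0.978), Sept10 (0.958) and Slc39a13 (0.951) with Cdkn2d. Between members, Cdkn2a and Cdkn2b had an r of 0.863, and Cdkn2a and Cdkn2c one of -0.895.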

How the data were processed

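RNA was sequenced from 3 +Dox, 2 -Dox and 3 satellite cell libraries. Reads were aligned by the authors with TopHat2 2.0 and counted per gene symbol with HTSeq 0.6, per the labels' processing notes, and the deposited values are raw read counts. The gene annotation used for counting is not given in the sources used here. The authors aligned ATAC-seq reads to mm9 with Bowtie2 2.2.6, removed duplicates, shifted read ends for Tn5, merged replicates and called regions with MACS2 2.0.10, and the deposited lists give fold enrichment over background as a ratio and −log10 q. Histone regions were called with Qeseq on merged replicates, and those lists and the Pax7 list hold positions only.

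Counts were scaled by TMM and tested in edgeR 4.0.16 (R 4.3.3) with the quasi-likelihood test on the 14836 genes left by filterByExpr. All 8 libraries shared 1 estimate of the spread, p-values had Benjamini-Hochberg adjustment, and a gene was called at an adjusted p under 0.05. The p-values measure the spread between these libraries, which may be technical. The script was tested on simulated data. Starts, exon lengths and promoters were taken from GENCODE M1 on NCBIM37. The 7 genes, the lists and the tests were chosen with earlier results of these data known. Genes named from a list were its 3 called genes of largest log2 difference, plus Cdk4, Cdk6, Trp53, Cul1, Rnf123 and the other Polycomb genes, named after their values were seen. Alternatives used DESeq2 1.42.0, other scalings, filters and sample sets, a block for the replicate number, and fits without each replicate, which were applied to the lists after seeing the data. The depth of 39010958 to 54674619 counts leaves counting error small except at genes with few reads, such as Cdkn2a, Cdkn2b and Cdkn2d in satellite cells.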

Additional observations from a re-analysis of the deposited data

How the results depend on the processing

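Of 8 called differences of CDK inhibitors other than Cdkn2a and Cdkn2b, 5 kept their call and direction in all 15 alternatives, and those of Cdkn1a and Cdkn2c in satellite cells against -Dox and of Cdkn1c in satellite cells against +Dox were lost in 8, 2 and 2. The 4 of Cdkn2a and Cdkn2b were called throughout. Cdkn2a passed the filter only through the iPax7 groups, so for Cdkn2a this says nothing about stability, and Cdkn2b had few or no reads in satellite cells. The number of members called was 1 throughout for -Dox against +Dox. It was 5 for satellite cells against -Dox, where it ran from 3 to 6 when 1 library was left out, with 3 without either -Dox library, which leaves a lone -Dox sample assumed to vary like the other groups. Among differences that were never called, Cdkn2a in -Dox against +Dox turned to 0.022 with DESeq2 size factors and with its Wald test and ran from -0.191 to 0.376 without single replicates, Cdkn2c turned to -0.106 with total counts and ran from -0.21 to 0.402, and Cdkn1b ran from -0.521 to 0.298. Cdkn2d in satellite cells against -Dox ran from -1.383 to 0.145. The cause was not tested. With the replicate number as a block, Cdkn1b and Cdkn2a in -Dox against +Dox were 0.30 and 0.379. Same-numbered libraries did not deviate together (r from -0.0398 to 0.0272), so the block shows only a shared number. Over all genes it called 4017 in -Dox against +Dox, beside 1142 without it, 2303 with the DESeq2 Wald test, 2155 with only these groups and 488 to 1444 without single libraries. Satellite cells against -Dox had 5780, and 3204 and 3382 without -Dox replicate 1 or 2. Total counts turned the median of the ligase parts in -Dox against +Dox from 0.09 to -0.13, and those of the pocket proteins and other imprinted genes in satellite cells against +Dox from 0.09 to -0.30 and from 0.11 to -0.29. With windows of 250 bases, members with H3K27me3 were 0 in +Dox and 0 in -Dox, and 1 had H3K4me1 in C2C12 with the flag control. With windows of 5 kb, 2 had H3K27me3 in -Dox, 1 had it in the C2C12 flag control, and 3 and 2 had H3K4me3 in the flag control and Pax7-flag cells. Low counts limit Cdkn2a, Cdkn2b and Cdkn2d in satellite cells.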
